A study of Mus musculus with 18 samples.

Results

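The genes described here are 8 members of the CD300 and Siglec receptor families, Cd300a, Cd300lb, Cd300ld, Cd300lf, Siglece, Siglecf, Siglecg and Cd33, taken by symbol from 34896 genes in the expression table. The data came from bone marrow of adult C57BL/6 mice, given as 6 to 12 weeks old, and cover 3 sorted populations of the neutrophil lineage: granulocyte-monocyte progenitors (GMP), pre-neutrophils (preNeu) and mature neutrophils (matNeu). Wild-type cells gave 3 RNA-seq libraries of each population, a peak list of the active histone mark H3K4me2 for each population and an ATAC-seq (open chromatin) list. Peaks of CHD4, a chromatin remodeling helicase and core subunit of the repressor complex NuRD, came from wild-type (WT) GMPs and from GMPs of Gfi1-/- mice, called Gfi1KO, which lack the transcriptional repressor GFI1 in every cell. Each ChIP-seq list is 1 library, so comparisons of peaks have no replicate check and no test. GMPs were sorted as lineage-negative, cKit+, Sca1-, CD16/32+ and CD34+ cells, preNeu as Mac1+, Gr1+, cKit+ and CXCR4+ cells, and matNeu, also from Mac1+, Gr1+ cells, by the level of CXCR2 and of Siglec-F, the protein made from Siglecf, for which the descriptions of the sort differ in sign. The level of Siglecf in matNeu may therefore have been partly set by the sort and is given as a description, with no test.

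CD300 molecules are single immunoglobulin-domain receptors of myeloid cells that bind lipids such as those exposed on dying cells. Siglecs are immunoglobulin-like lectins that bind sialic acid on glycans of the same or neighbouring cells. An inhibitory member carries an immunoreceptor tyrosine-based inhibitory motif (ITIM) in its tail, which recruits the phosphatases SHP-1 and SHP-2, whereas an activating member has a short tail and signals through an adaptor with an activating motif. By that division Cd300a, Cd300lf, Siglece, Siglecf and Siglecg encode inhibitory receptors, Cd300lb encodes a receptor that signals through DAP12 (the product of Tyrobp), and Cd300ld one that pairs with the Fc receptor gamma chain (the product of Fcer1g). Mouse CD33 differs from human CD33 in its tail, which lacks the canonical ITIM. Inhibitory is thus a name for part of these genes and not for all of them.

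The genes lie in 2 clusters. On chromosome 11 (GRCm38, GENCODE annotation), Cd300a was annotated at chr11:114890041-114904654 on the plus strand, Cd300lb at chr11:114922781-114934386, Cd300ld at chr11:114982274-114989922 and Cd300lf at chr11:115116214-115133992, all 3 on the minus strand. On chromosome 7, Siglecf was at chr7:43351341-43359531 and Siglecg at chr7:43408204-43418358 on the plus strand, with Cd33 at chr7:43524216-43544428 and Siglece at chr7:43651070-43660161 on the minus strand. The start regions of 4 genes are shown because all of them carried CHD4 in WT GMPs while the genes behaved differently: Cd300ld and Cd300lf, whose transcripts rose most, Siglece, and Siglecg, the gene that was lower in matNeu than in preNeu. Each run is the 150 bases before the annotated start, 5′ to 3′ on the strand of the gene, read from the GRCm38.p6 RefSeq genome and ending at the more upstream of the RefSeq and GENCODE starts, and capitals mark GAGGAA or its reverse complement, a core sequence bound by the myeloid factor SPI1 (PU.1).
Cd300ld, chr11:114989923-114990072: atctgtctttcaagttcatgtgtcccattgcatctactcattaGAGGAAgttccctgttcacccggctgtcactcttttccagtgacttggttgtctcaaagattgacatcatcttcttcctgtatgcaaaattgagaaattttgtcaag
Cd300lf, chr11:115133993-115134142: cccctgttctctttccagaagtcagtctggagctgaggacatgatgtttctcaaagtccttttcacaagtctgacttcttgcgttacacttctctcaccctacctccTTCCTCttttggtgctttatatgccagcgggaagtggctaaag
Siglece, chr7:43660162-43660311: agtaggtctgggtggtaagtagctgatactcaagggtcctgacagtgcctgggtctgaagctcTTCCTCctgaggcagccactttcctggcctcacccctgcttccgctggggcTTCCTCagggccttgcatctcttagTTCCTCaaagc
Siglecg, chr7:43408054-43408203: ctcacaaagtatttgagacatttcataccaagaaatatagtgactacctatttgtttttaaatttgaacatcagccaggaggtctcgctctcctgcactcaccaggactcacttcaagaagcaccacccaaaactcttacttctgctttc

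GAGGAA on either strand was present in this window of 5 of the 8 genes (Cd300a, Cd300ld, Cd300lf, Siglece and Siglecf), 3 times in Siglece, against 14.4% of 27025 RefSeq promoters cut to the same length. AAATCA, which holds the core of the GFI1 motif, occurred in 0 of the 8 windows and in 7.33% of all promoters. TTGCNNAA, a C/EBP-type sequence, occurred in 0 of the 8 and in 5.49% of all promoters. These are matches of letters and not measured binding sites.

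The first question was how the 8 transcripts change from progenitor to mature neutrophil. Values are TPM (transcripts scaled to a fixed library total). They are corrected for gene length, so that levels can be compared between genes of a library. Some comparisons between libraries depended on the scaling, as given below. Of the 8 genes, 6 rose from GMP to matNeu, and together the 8 genes summed to 226 TPM ± 12.8 in GMP, 819 ± 99.1 in preNeu and 5589 ± 498 in matNeu (SD, n = 3 each). The labels do not say whether the 3 libraries of a population came from separate animals, so the spread between them may be technical. In sorted bulk cells, fewer cells of a type and less RNA per cell cannot be told apart.

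**Figure D1:**
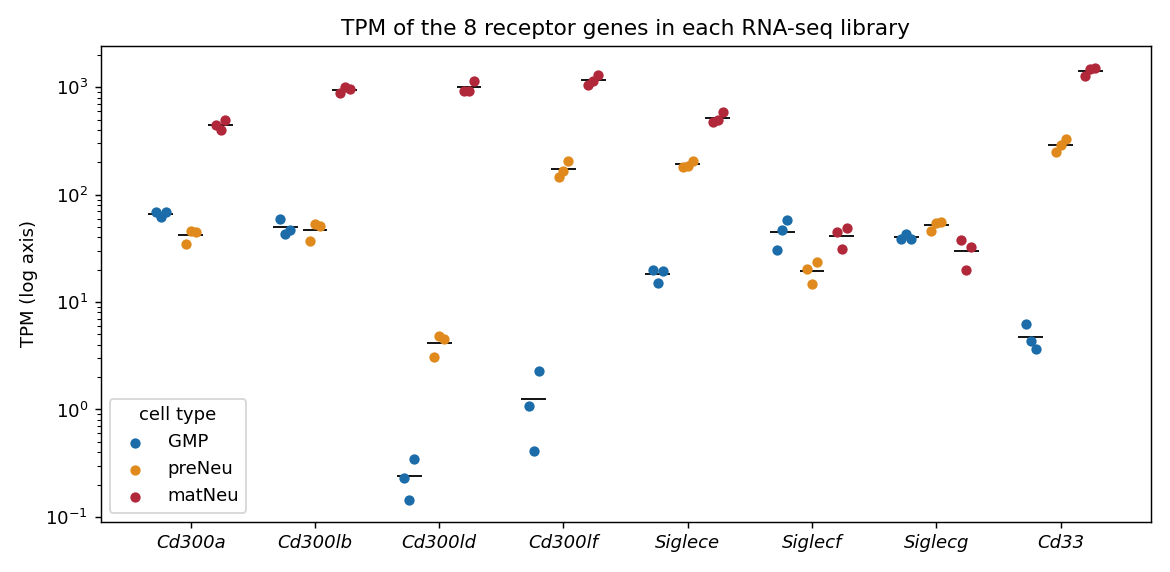
TPM of each gene in every RNA-seq library on a logarithmic axis; points are libraries (GMP blue, preNeu orange, matNeu red, 3 each) and black bars are group means. The 6 genes that rose reached 397 TPM or more in every matNeu library, while Siglecf and Siglecg stayed between 14.8 and 58.6 TPM in all 9.

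Cd300lf, an inhibitory receptor for phospholipids, was nearly silent in progenitors, at 1.07, 0.408 and 2.29 TPM in the GMP libraries. It reached 146, 166 and 205 TPM in preNeu and 1057, 1141 and 1306 TPM in matNeu. The 3 groups did not overlap. On the log2(TPM + 1) scale the change was 6.33 ± 0.27 (SE) from GMP to preNeu (limma, adjusted p = 3.63e-08) and 2.76 ± 0.27 from preNeu to matNeu (adjusted p = 5.23e-06).

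Cd300ld, an activating receptor, behaved differently. It was at 0.231, 0.143 and 0.347 TPM in GMP and still at 3.05, 4.83 and 4.53 TPM in preNeu, but at 916, 931 and 1150 TPM in matNeu. All matNeu libraries stood far above all others. The log2 change was 2.04 ± 0.20 to preNeu (adjusted p = 1.43e-05; 3.66 with a pseudocount of 0.1 in place of 1) and a further 7.61 ± 0.20 to matNeu (adjusted p = 8.72e-10). With GMP levels below 1 TPM, the ratio of group means to GMP depends on very few reads and is not given.

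Cd300a, the inhibitory receptor of the family for phosphatidylserine, was already expressed in GMP, at 68.7, 61.6 and 69.4 TPM. It measured 34.5, 46.4 and 44.6 TPM in preNeu and 447, 397 and 497 TPM in matNeu. Every preNeu library was below every GMP library and every matNeu library above both. The matNeu mean was 6.71 times that of GMP (log2 change 2.73 ± 0.15, adjusted p = 2.73e-08). The drop from GMP to preNeu (log2 change −0.67 ± 0.15, adjusted p = 0.00256) was close to the median of all genes in that comparison, −0.52, and with libraries scaled by the median of ratios it was −0.16 (adjusted p = 0.276).

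Cd300lb, the DAP12-coupled member next to Cd300a, was at 59.2, 43.5 and 47.0 TPM in GMP and 37.4, 52.8 and 51.3 TPM in preNeu. Those groups overlapped, and their difference did not pass the test (log2 change −0.08 ± 0.16, 95% interval −0.45 to 0.28, adjusted p = 0.686). Under median-of-ratios scaling it changed sign and passed the test (0.42, adjusted p = 0.0356). In matNeu the gene was at 885, 1004 and 971 TPM, 20.2 times the preNeu mean (log2 change 4.32 ± 0.16, adjusted p = 5.7e-09).

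Cd33 had the highest level of the 8 in preNeu and matNeu. It was at 6.22, 4.32 and 3.66 TPM in GMP, 252, 291 and 327 TPM in preNeu and 1266, 1495 and 1528 TPM in matNeu. The groups were fully apart at each step. The log2 change was 5.68 ± 0.17 to preNeu (adjusted p = 3.86e-09) and 2.30 ± 0.17 from preNeu to matNeu (adjusted p = 8.16e-07). In matNeu its mean ranked 108th among the 13061 genes tested.

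Siglece, the main inhibitory Siglec of mouse neutrophils, rose in the same order from a higher base. It was at 20.0, 15.1 and 19.4 TPM in GMP, 182, 184 and 208 TPM in preNeu and 479, 495 and 587 TPM in matNeu. The preNeu mean was 10.5 times that of GMP (log2 change 3.33 ± 0.14, adjusted p = 4.04e-08), and the matNeu mean 2.72 times that of preNeu (log2 change 1.44 ± 0.14, adjusted p = 6.44e-06).

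Siglecg, best known as the inhibitory Siglec of B cells, stayed within a narrow range. It was at 38.7, 42.6 and 38.9 TPM in GMP, 46.0, 55.1 and 56.2 TPM in preNeu and 37.5, 19.9 and 32.3 TPM in matNeu. The matNeu libraries lay below the preNeu libraries (log2 change −0.83 ± 0.22, adjusted p = 0.00628), and under median-of-ratios scaling the difference kept its direction but did not pass the test (−0.47, adjusted p = 0.0528). Against GMP, matNeu did not pass the test (−0.45 ± 0.22, 95% interval −0.93 to 0.03, adjusted p = 0.077); without matNeu replicate 1 the change was −0.64 (adjusted p = 0.0219), and it was 0.41 under median-of-ratios scaling (adjusted p = 0.0763) and passed the test as a rise, 0.58, under quantile normalization (adjusted p = 0.0133). The direction between GMP and matNeu thus depended on the scaling. The difference between preNeu and GMP, 0.37 ± 0.22 (adjusted p = 0.162), passed the test with those 2 groups fitted alone (adjusted p = 0.0391) and, at 0.87, under median-of-ratios scaling (adjusted p = 0.00333).

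Siglecf, the inhibitory Siglec of eosinophils, was at 30.8, 46.5 and 58.6 TPM in GMP, 20.2, 14.8 and 23.5 TPM in preNeu and 45.1, 31.2 and 48.7 TPM in matNeu. The preNeu libraries were the lowest, and GMP and matNeu overlapped. The log2 change was −1.15 ± 0.27 to preNeu (adjusted p = 0.00379; −0.65 under median-of-ratios scaling, adjusted p = 0.0617) and, as a description of the sorted cells, 1.05 from preNeu to matNeu and −0.10 from GMP to matNeu (0.77 under median-of-ratios scaling).

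**Figure D2:**
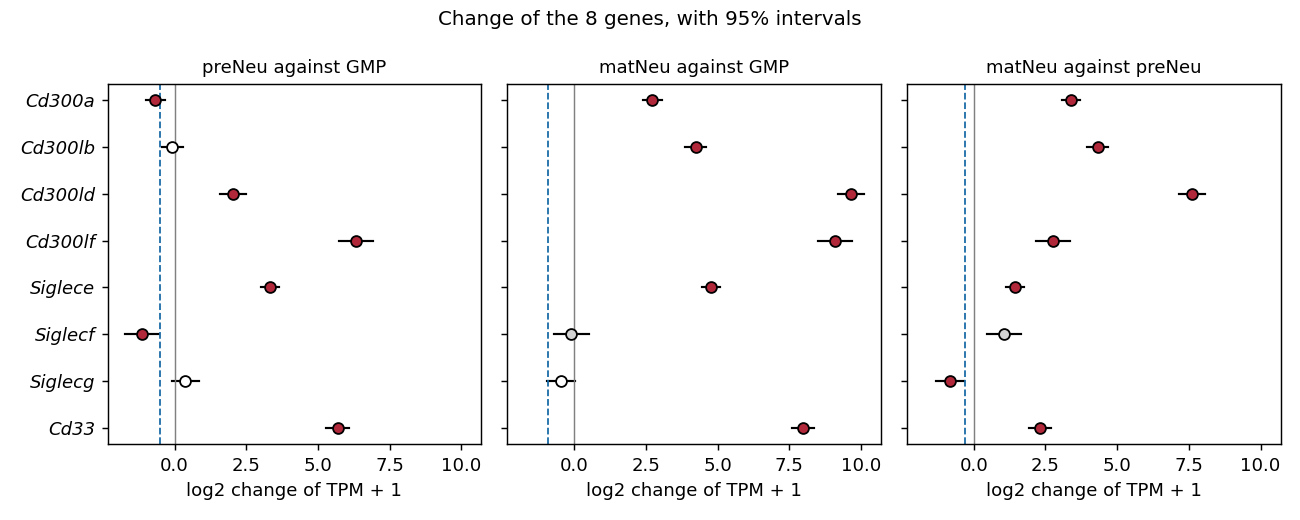
Log2 change of TPM + 1 for the 8 genes in each comparison. Points are limma estimates with 95% intervals, red where the adjusted p was under 0.05 and white where not. Siglecf in matNeu is grey and is given without a test because of the sort. The dashed line is the median of all 13061 genes tested. Cd300ld and Cd300lf lie above 9 in matNeu against GMP, while the dashed line is at −0.92.

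Over the 8 genes, all of which passed the filter on low values, 4 rose and 2 fell from GMP to preNeu, against 14.7% and 44.3% of all genes tested. Of the 7 genes other than Siglecf, 6 rose and 0 fell from GMP to matNeu, against 22.8% and 54.1%, and 6 rose and 1 fell from preNeu to matNeu, against 22.9% and 39.8%. No fall remained under median-of-ratios scaling or quantile normalization. Under both, 6 of the 8 rose from GMP to preNeu and 6 of the 7 from preNeu to matNeu. From GMP to matNeu 6 and 7 of the 7 rose. Of all 13061 genes tested, 3027 rose and 3679 fell from GMP to preNeu under median-of-ratios scaling, and 3299 and 3559 under quantile normalization. The same counts were 4498 and 5453, and 4991 and 4958, from GMP to matNeu. From preNeu to matNeu they were 3944 and 4414, and 4110 and 4058. The median log2 changes were 1.21 over the 8 genes from GMP to preNeu, and 4.77 and 2.76 over the 7 genes from GMP and from preNeu to matNeu, and those of all genes −0.52, −0.92 and −0.32. The split of all calls depended on the scaling: from GMP to preNeu 24.98% of called genes were higher in TPM and 45.1% under median-of-ratios scaling, and the corresponding values were 29.6% and 45.2% for matNeu against GMP and 36.5% and 47.2% for matNeu against preNeu.

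The order of levels turned over between progenitor and neutrophil. In GMP the mean levels ran from Cd300a through Cd300lb, Siglecf, Siglecg, Siglece, Cd33 and Cd300lf to Cd300ld, with overlap between Cd300lb and Siglecf and between Siglecf and Siglecg. In matNeu the order was Cd33 (1429 TPM ± 143, SD, n = 3), Cd300lf (1168 ± 126), Cd300ld (999 ± 131), Cd300lb (953 ± 61.4), Siglece (520 ± 58.4), Cd300a (447 ± 50.0), Siglecf (41.7 ± 9.28) and Siglecg (29.9 ± 9.02). Neighbouring libraries overlapped from Cd33 through Cd300lb, between Siglece and Cd300a and between Siglecf and Siglecg. The breaks without overlap were those below Cd300lb and below Cd300a. The 6 genes above the lower break each exceeded at least 97.1% of all genes tested.

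Because reads of related genes can be shared, the 31-base words of each annotated transcript were compared with those of all other genes. In Cd300ld 6.56% of them occurred in another gene, most often Cd300lf, in Cd300lf 4.33% and in Cd300a 7.51%, most often Cd300c2. For Cd300lb the share was 0%, and for Cd33, Siglece and Siglecf it was 0.615%, 1.14% and 0.872%. In Siglecg 6.83% were shared, most often with the predicted gene Gm29791.

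Among 8 other CD300 genes, Cd300c2 was the most abundant, at 2.47, 2.30 and 5.16 TPM in GMP, 12.6, 9.60 and 14.6 TPM in preNeu and 243, 207 and 240 TPM in matNeu. Its log2 change from GMP to matNeu was 5.80 ± 0.26 (adjusted p = 6.86e-09), and 12.3% of its words were shared, most often with Cd300a. Cd300c reached a mean of 4.24 TPM ± 2.37 in matNeu (log2 change from preNeu 1.68 ± 0.52). Its libraries were at 0.576, 4.54 and 0.805 TPM in GMP and at 3.18, 6.95 and 2.59 TPM in matNeu, so these groups overlapped. Without matNeu the gene would have failed the filter on low values, so no p-value is given. Cd300lg had 1.56 TPM ± 1.00 in GMP and passed no test in TPM or under either other scaling. Cd300ld3 was listed at 0 in all GMP and preNeu libraries and at 4.25, 3.21 and 1.07 TPM in matNeu, but 84.1% of its words were shared, most often with Cd300ld5. Of 5 other Siglec genes, Siglech, a marker of plasmacytoid dendritic cells, had 8.30, 11.6 and 6.59 TPM in matNeu (log2 change from GMP 3.19 ± 0.28). Cd22, a B-cell Siglec, had 4.07, 13.7 and 6.84 TPM there (2.63 ± 0.41). Both would have failed the filter on low values without the matNeu libraries, so no p-value is given. Siglec1 averaged 1.34 TPM ± 0.39 in preNeu (log2 change from GMP 0.86 ± 0.28). It lay near 1 TPM and would have failed the filter on low values without preNeu, so no p-value is given. Mag lay between 2.64 and 10.02 TPM in all libraries. The log2 change of Mag from GMP to matNeu did not pass the test in TPM (0.32, adjusted p = 0.464). It did under median-of-ratios scaling (1.06, adjusted p = 0.0331) and quantile normalization (1.66, adjusted p = 0.00231). In matNeu each of these was below the lowest of the 6 raised receptors, Cd300a.

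The signalling partners were examined next. Of 8 genes for proteins recruited by ITIMs or linked to them, 2 rose and 0 fell from GMP to preNeu and 6 rose and 1 fell from GMP to matNeu, beside 14.7% higher and 44.3% lower, and 22.8% higher and 54.1% lower, of all genes tested. Under both median-of-ratios scaling and quantile normalization 5 rose and 0 fell from GMP to preNeu. Of all 13061 genes tested, 3027 and 3299 rose under these scalings, and 3679 and 3559 fell. Ptpn6, which encodes SHP-1, rose from 390 TPM ± 13.6 to 748 ± 58.6 and 1297 ± 110 (SD, n = 3 each; log2 change matNeu against GMP 1.73 ± 0.10, adjusted p = 6.3e-08). Ptpn11, which encodes SHP-2, fell from 30.0 TPM ± 2.44 in GMP to 11.3 ± 2.70 in matNeu (log2 change −1.35 ± 0.20, adjusted p = 8.11e-05), where the median of all genes was −0.92. The value was −0.51 under median-of-ratios scaling (adjusted p = 0.0210) and −0.069 under quantile normalization (adjusted p = 0.731), so the fall of Ptpn11 did not pass the test under every scaling. Inpp5d, for the inositol phosphatase SHIP-1, rose to 291 TPM ± 6.26 in matNeu (1.40 ± 0.23, adjusted p = 0.000217), and Csk, a kinase that restrains Src-family kinases, to 159 ± 3.58 (1.56 ± 0.18, adjusted p = 1.39e-05). Socs3, a feedback inhibitor of cytokine signalling, averaged 0.197 TPM ± 0.203 in GMP and 227 ± 62.2 in matNeu (log2 change 7.56 ± 0.27). It is counted among the 6 that rose, but it passed the filter on low values only through matNeu, so no p-value is given.

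Of 11 genes for adaptors and kinases of the activating arm, 10 were tested, and 8 rose and 2 fell from GMP to matNeu, beside the same 22.8% and 54.1% of all genes. The counts were 9 and 1 under median-of-ratios scaling, beside 4498 and 5453 of all 13061 genes. They were 8 and 2 under quantile normalization, beside 4991 and 4958. Tyrobp, the partner of Cd300lb, went from 235 TPM ± 40.2 in GMP to 584 ± 69.3 in preNeu and 3325 ± 1081 in matNeu (log2 change matNeu against GMP 3.78 ± 0.21, adjusted p = 3.79e-08). Fcer1g, the partner of Cd300ld, went from 138 TPM ± 15.8 to 410 ± 50.9 and 1018 ± 292 (2.84 ± 0.19, adjusted p = 1.4e-07). Both adaptors were thus present in GMP, where Cd300ld was below 1 TPM. The Src-family kinase gene Fgr changed by 8.80 ± 0.13 (adjusted p = 1.39e-11), and the adaptor genes Hcst and Lat2 by 2.99 ± 0.32 and −3.19 ± 0.35 (adjusted p = 6.54e-06 and 8.91e-06).

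Among 14 other inhibitory receptor genes 9 rose and 4 fell from GMP to matNeu (22.8% and 54.1% of all genes), with a median log2 change of 2.01 against −0.92 for all genes. Lilrb4a and Pirb, which encode ITIM receptors of the leukocyte immunoglobulin-like family, changed by 8.63 ± 0.17 and 8.30 ± 0.23 (adjusted p = 8.34e-11 and 3.78e-10) and reached 2835 and 1384 TPM in matNeu. Lilr4b, a close relative of Lilrb4a that is counted among the 14 although its product carries no ITIM, changed by 9.75 ± 0.14 (adjusted p = 1.39e-11) and reached 3088 TPM. Of 33 genes that make, attach or remove sialic acid, the ligand of Siglecs, 24 were tested. From GMP to matNeu 5 rose and 15 fell, shares near the 22.8% and 54.1% of all genes, with a median of −1.43. Under median-of-ratios scaling 7 rose and 12 fell, beside 4498 and 5453 of all 13061 genes. Under quantile normalization 9 rose and 10 fell, beside 4991 and 4958. St3gal6, which caps glycans with sialic acid, averaged 0.0906 TPM ± 0.135 in GMP and 366 ± 54.0 in matNeu (log2 change 8.39 ± 0.26). Without matNeu it would have failed the filter on low values, so no p-value is given. St3gal5, which makes the ganglioside GM3, went from 0.433 TPM ± 0.601 in GMP to 531 ± 38.4 in preNeu and 257 ± 20.3 in matNeu. Its log2 change from GMP to matNeu was 7.57 ± 0.24 (adjusted p = 8.17e-10). Nanp, a phosphatase of sialic acid synthesis, averaged 17.6 TPM ± 9.93 in GMP and was listed at 0 in all 3 matNeu libraries.

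The genes with the most similar course over the 9 libraries were found by the Euclidean distance of centred log2(TPM + 1) values. Nearest to Cd33 were Pilra (distance 1.01), Crispld2 (1.18) and Pirb (1.22), and nearest to Cd300lf were Fgr (1.68), Pirb (1.69) and Pilra (1.73). Pilra, which encodes another paired inhibitory receptor for sialylated ligands, had means of 3.34, 232 and 1109 TPM in GMP, preNeu and matNeu. Nearest to Cd300ld were Pla2g7 (1.25) and Asprv1 (1.42), and to Siglece Rap1gap2 (0.596), Ntng2 (0.611) and Apobr (0.64). Cd300a was nearest to Map1lc3b (0.281), Prex1 (0.449) and Shisa5 (0.507), and Cd300lb to Selenon (0.47), Slc16a14 (0.601) and Lypd6b (0.605). Slc16a14 and Lypd6b averaged only 0 and 0.204 TPM in GMP, 0.0148 and 0.0380 in preNeu and 20.7 and 23.9 in matNeu. At levels so far below those of Cd300lb the distance depends on the pseudocount of 1. These likenesses rest on 3 cell types.

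The sorted populations carried the markers of their labels, some of which encode proteins used in the sort (Cd34 and Kit for GMP, Cxcr2 for matNeu). The 6 GMP markers summed to 46004 TPM in GMP, 8965 in preNeu and 17.2 in matNeu, led by Mpo. The 6 preNeu markers, led in preNeu by Ngp, summed to 106, 157037 and 5698 TPM, and the 6 matNeu markers, led in matNeu by Retnlg, to 156, 989 and 32284 TPM. For 13 of the 18 samples, including all 9 RNA-seq libraries, another descriptive field named a different cell type than the sample title, and the titles, which these markers fit, were used.

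Markers of other cells were summed beside the receptors. The 7 eosinophil markers, relevant to Siglecf, summed to 923, 1119 and 843 TPM in the GMP libraries, mostly Prg2 (759 TPM). They summed to 91.7, 75.4 and 86.6 TPM in preNeu, led by Ear2, and to 12.7, 8.31 and 9.12 TPM in matNeu, where Epx, Ear1 and Ear6 were listed at 0; 5 of the 7 fell and 1 rose from GMP to matNeu. For this and the counts that follow, the shares of all genes in TPM were 22.8% higher and 54.1% lower from GMP to matNeu. From preNeu to matNeu they were 22.9% and 39.8%. The counts of all genes under the other scalings are given above with the 8 receptors. The 7 B-cell markers, relevant to Siglecg and Cd22, summed to 94.5, 79.4 and 88.2 TPM in GMP, where Cd79b made up 86.4 TPM and Pax5 and Ebf1 were listed at 0, to 27.8, 48.8 and 47.7 TPM in preNeu and to 62.9, 76.9 and 137 TPM in matNeu, both led by Cd79b; of the 6 tested, 5 rose and 1 fell from GMP to matNeu, and 3 rose and 0 fell from preNeu to matNeu, while under both other scalings 5 rose and 0 fell in each. Monocyte and macrophage markers (7 genes) summed to 4437 TPM ± 411 in GMP, 1913 ± 274 in preNeu and 1330 ± 184 in matNeu, and Ly6c2 alone made up 2962, 1866 and 937 TPM of these. From GMP to matNeu 1 of the 7 rose and 5 fell, and from preNeu to matNeu 2 rose and 3 fell. Adgre1 was at 12.3, 11.4 and 83.8 TPM in GMP, preNeu and matNeu (log2 change matNeu against GMP 2.67 ± 0.24, adjusted p = 1.74e-06), and Csf1r at 204, 13.8 and 304 TPM (log2 change matNeu against preNeu 4.47 ± 0.29, adjusted p = 2.37e-07); both were named after their values were seen. Dendritic markers (6 genes, Siglech among them) summed to 74.7, 10.1 and 60.9 TPM, led by Bst2 in GMP and preNeu and by Itgax in matNeu. Of the 4 tested, 2 rose and 2 fell from GMP to matNeu, and 3 rose and 0 fell from preNeu to matNeu. Itgax was listed at 0 in all GMP libraries, averaged 0.647 TPM in preNeu and stood at 36.7, 27.7 and 48.95 TPM in matNeu (log2 change matNeu against preNeu 4.58 ± 0.32). Itgax and Siglech passed the filter on low values only through matNeu, so no p-value is given for them. Basophil and mast cell markers (6 genes) summed to 635, 401 and 7.66 TPM, led by Cpa3 in GMP and by Prss34 in the others. T and NK cell markers (6 genes) summed to 542, 233 and 15.6 TPM, led by Nkg7 in GMP and preNeu and by Cd3d in matNeu, and erythroid markers (6 genes) to 9.92, 14.8 and 11.04 TPM, led by Klf1 in GMP and by Hbb-bs in the others. Sorting on Mac1 and Gr1 selects against most lymphoid cells in preNeu and matNeu. The part of such cells in the levels of the 8 receptors, Siglech and Cd22 was not tested.

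The second question was whether CHD4 occupied these loci in GMP and whether the peaks were still called without GFI1. Every one of the 8 genes had at least 1 CHD4 peak of WT GMPs within 10 kb, against 32.4% of 21938 protein-coding genes, and 4 (Cd300ld, Siglece, Siglecf and Cd33) had one in Gfi1KO GMPs, against 10.2%. At the promoter (2 kb before the start and 500 bp after it), all 8 had a WT peak and 3 (Cd300ld, Siglece and Cd33) a Gfi1KO peak, against 8.58% and 1.65% of protein-coding genes. The 41 WT peaks comprised 10 at Siglece, 9 at Cd300lb, 6 at Siglecf, 5 each at Cd33 and Cd300a, 3 each at Cd300lf and Siglecg and 1 at Cd300ld, with 1 peak counted for both Cd300a and Cd300lb.

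**Figure D3:**
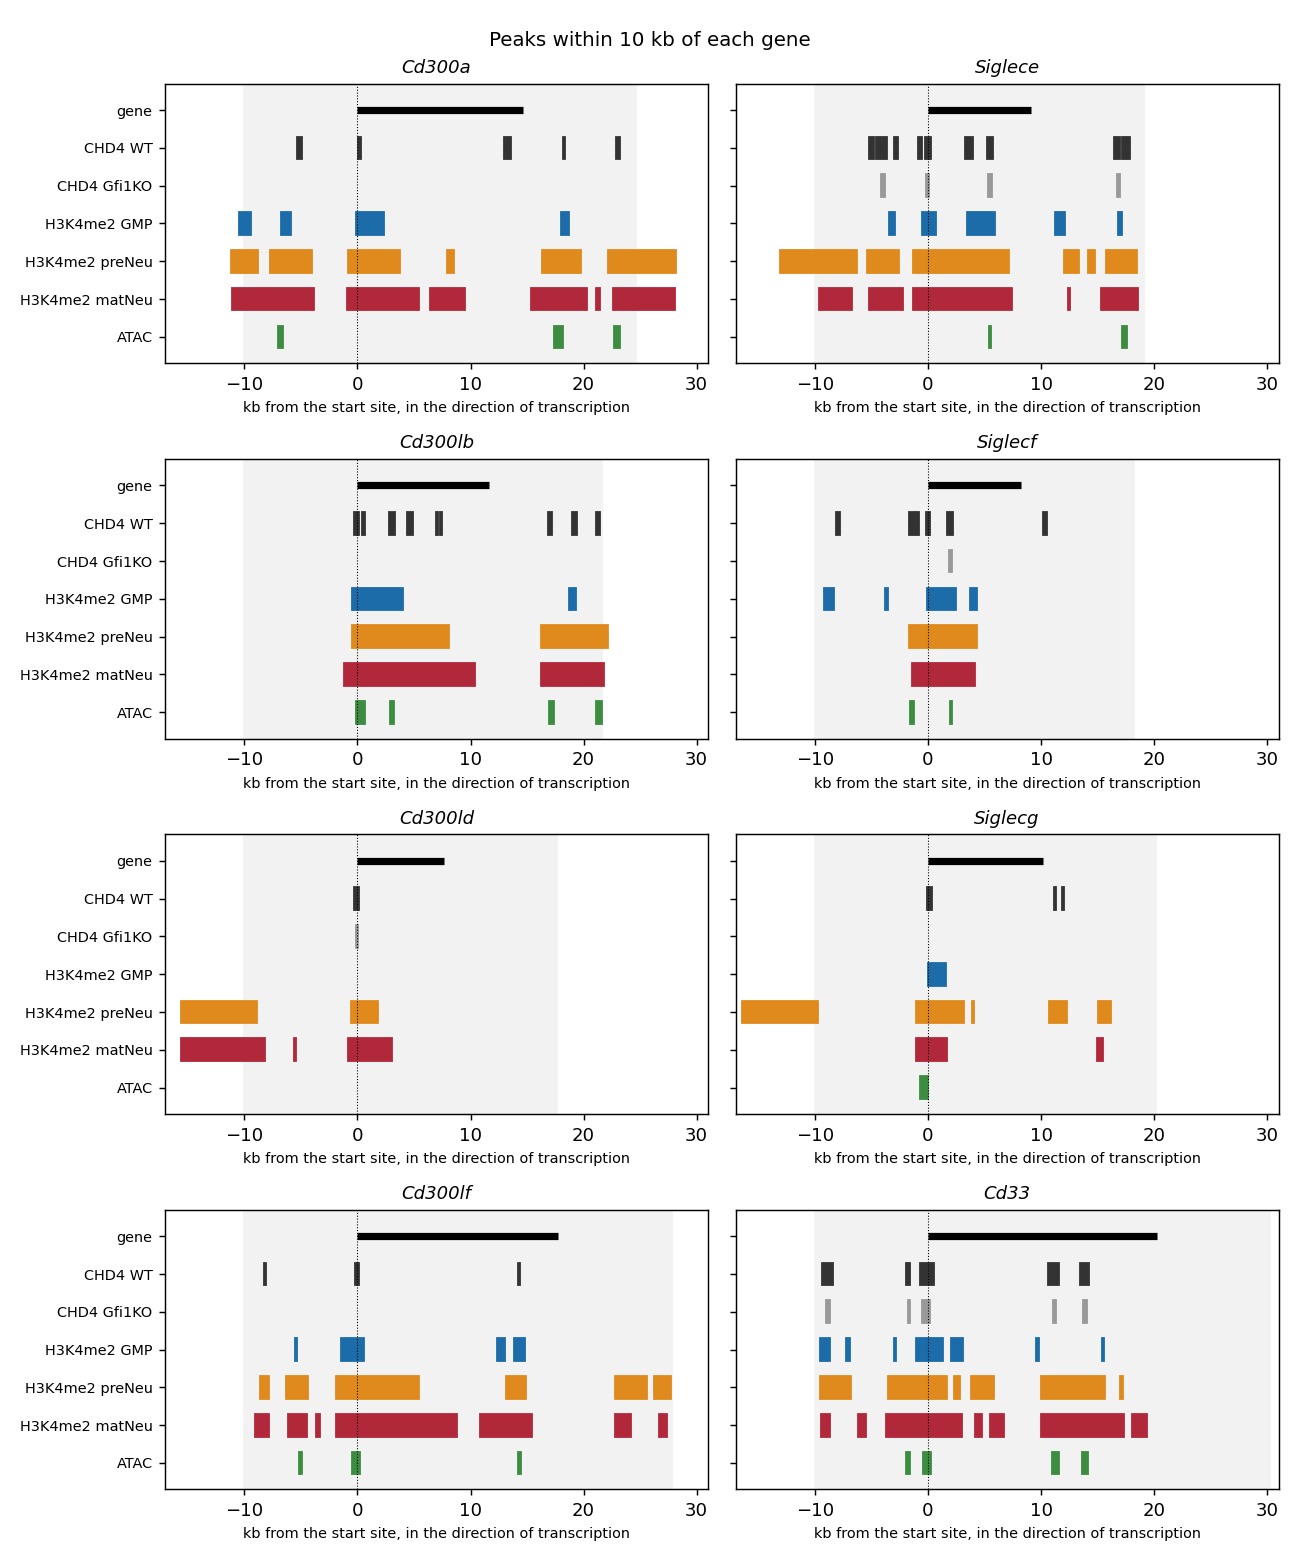
Peaks within 10 kb of each gene by distance in kb from the GENCODE start site, in the direction of transcription; rows are the 6 peak lists, the black bar is the gene and grey marks the window. All 8 genes had a CHD4 peak of WT GMPs at the promoter, that of Cd300a lying 88 to 288 bp after the start. Of the WT peaks, 5 of 5 of Cd33 but 0 of 9 of Cd300lb had a counterpart in Gfi1KO GMPs.

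Of the 41 WT peaks, 11 (26.8%, 95% Wilson interval 15.7 to 41.9, counting error only) overlapped a Gfi1KO peak by at least 1 bp, against 18.5% of all 35790 WT peaks. All 11 Gfi1KO peaks in these windows overlapped a WT peak, and the summits of the pairs were at most 107 bp apart. At the Siglec genes 10 of 24 peaks (41.7%, interval 24.5 to 61.2) were kept, and at the CD300 genes 1 of 17 (5.88%, interval 1.05 to 27.0). Peaks of one gene are not independent, and the Siglec share came from Cd33 (5 of 5), Siglece (4 of 10) and Siglecf (1 of 6), with 0 of 3 at Siglecg.

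Peak strength moved with this. Fold enrichment, the height of a peak over its background in the MACS2 list, had a median of 26.4 in the 11 kept peaks and 6.92 in the other 30, and the list median was 7.72. In the top 10% of all WT peaks by fold enrichment (21.2 or more), 92.9% of the list and 7 of 7 peaks at these genes were kept. In the lower 60%, 2.18% of the list and 1 of 22 peaks were kept, the exception being the Cd300ld promoter peak. With the WT list cut to as many peaks as the Gfi1KO list (7316), 10 of 11 peaks (90.9%) were kept, against 72.5% of the cut list. The Gfi1KO list was shorter and weaker as a whole (median fold enrichment 6.38), and a lost site and a library of lower enrichment cannot be told apart with 1 library per genotype.

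**Figure D4:**
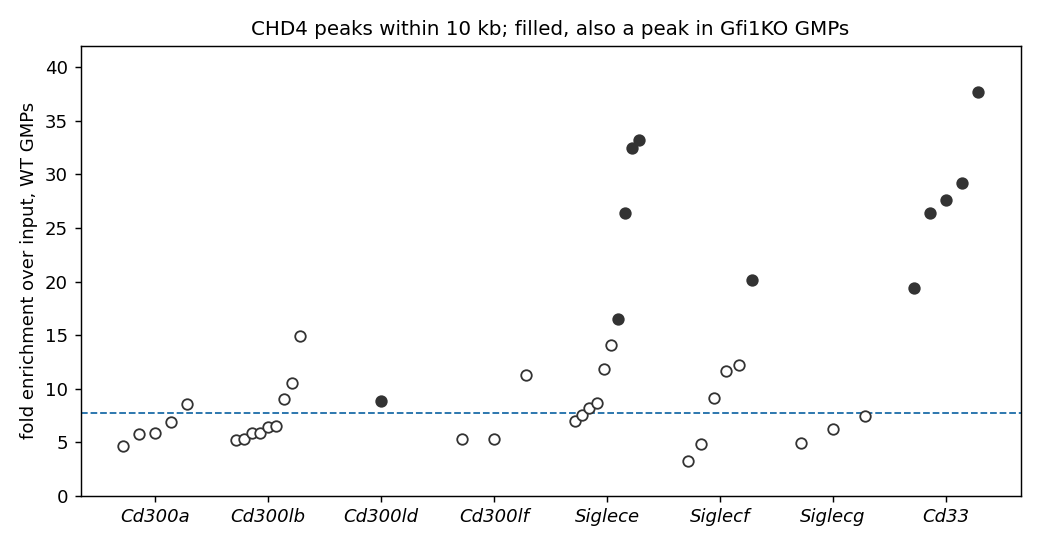
Fold enrichment of each CHD4 peak of WT GMPs within 10 kb of a gene; each circle is 1 peak, filled where Gfi1KO GMPs also had a peak, and the dashed line is the median of all 35790 WT peaks (7.72). All filled circles but that of Cd300ld lie at 16.5 or more, above every open circle.

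The strongest peak of each gene locates these sites. At Cd33 it was chr7:43543917-43545127 (fold enrichment 37.7), with its summit 346 bp upstream of the GENCODE start, and at Siglece chr7:43663806-43664727 (33.2), 3942 bp upstream. At Siglecf it was chr7:43353062-43353550 (20.1), in an intron 1964 bp downstream of the start. These 3 were kept, with fold enrichments of 13.7, 11.7 and 8.71 in the Gfi1KO list. At Cd300lb it was chr11:114931034-114931610 (14.9), in an intron 3100 bp downstream, and at Cd300a chr11:114884669-114885144 (8.53), intergenic and 5166 bp upstream; neither was kept. At Cd300lf and Siglecg it was the start site peak (11.2 and 7.45), not kept, and at Cd300ld the single peak chr11:114989807-114990192 (8.82), kept at 5.83. Cd33 has a second start in RefSeq 11257 bp inside the GENCODE gene, and a further kept peak, chr7:43532865-43533770 (27.6), lay there.

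The remaining Gfi1KO peaks were at Siglece and Cd33. Those at Siglece overlapped WT peaks at the start (fold enrichment 26.4 in WT and 6.10 in Gfi1KO), in an intron 5508 bp downstream (32.5 and 9.37) and 16839 bp downstream in the neighbouring gene Ceacam18 (16.5 and 8.05). Those at Cd33 were 13830 bp downstream in an exon (29.2 and 9.24), 11187 bp downstream at the RefSeq start (27.6 and 8.05), 1720 bp upstream (19.4 and 4.06) and 8835 bp upstream (26.4 and 6.94). In all 11 pairs the Gfi1KO value was the lower, by a ratio of 0.209 to 0.661 (median 0.316). Over all 6632 kept WT peaks the Gfi1KO value was the lower in 98.6%, with a median ratio of 0.324.

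The summit sequences of the strongest peaks are shown for a pair that was kept (Cd33 and Siglece) and a pair that was not (Cd300lb and Cd300a), as 101 bases centred on the summit on the strand of the gene, from GRCm38.p6, with GAGGAA in capitals.
Cd33, chr7:43544724-43544824: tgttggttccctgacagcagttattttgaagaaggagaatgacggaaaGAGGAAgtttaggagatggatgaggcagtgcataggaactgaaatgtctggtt
Siglece, chr7:43664053-43664153: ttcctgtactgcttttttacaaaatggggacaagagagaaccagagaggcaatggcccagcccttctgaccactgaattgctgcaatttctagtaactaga
Cd300lb, chr11:114931236-114931336: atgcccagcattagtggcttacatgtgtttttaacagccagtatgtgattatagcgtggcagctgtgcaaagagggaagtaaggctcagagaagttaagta
Cd300a, chr11:114884825-114884925: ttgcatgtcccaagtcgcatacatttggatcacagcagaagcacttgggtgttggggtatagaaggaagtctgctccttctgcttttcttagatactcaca

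GAGGAA on either strand was found at the summits of 2 of the 8 strongest peaks (Cd33 and Cd300lf) and in 30.5% of 35728 WT summits. AAATCA was found in 0 of the 8 and in 5.62% of the list, and TTGCNNAA in 1 (Siglecg) and in 9.72% of the list.

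The third question was how the active mark changes over the same stages. In GMP, 18 of the 41 CHD4 peaks (43.9%) lay under H3K4me2, close to the 37.8% of the list. In preNeu 38 (92.7%, interval 80.6 to 97.5) and in matNeu 36 (87.8%, 74.5 to 94.7) did, against 59.5% and 52.5% of the list. One ATAC list was used, since those deposited for preNeu and matNeu held identical peaks. Which population it came from is therefore not known, and neither title names GMP, the source of the CHD4 peaks. Of the 41 CHD4 peaks, 17 (41.5%, 27.8 to 56.6) overlapped it, against 10.1% of the list. No ATAC peak lay within 10 kb of Cd300ld.

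Taking each gene with 10 kb on either side, H3K4me2 peaks covered a median of 13.5% of the window in GMP, 41.6% in preNeu and 50.2% in matNeu, while the median protein-coding gene had 3.83%, 6.43% and 4.81%. All 8 genes had more cover in preNeu and in matNeu than in GMP, as had 63.5% and 49.0% of protein-coding genes. From preNeu to matNeu 5 genes gained, the 4 CD300 genes and Cd33, against 11.5% of protein-coding genes. The values in GMP, preNeu and matNeu were 13.6%, 46.3% and 66.4% for Cd300a, 16.1%, 44.4% and 53.5% for Cd300lb, and 10.5%, 42.7% and 54.9% for Cd300lf. They were 0%, 12.5% and 21.1% for Cd300ld and 13.5%, 40.5% and 46.9% for Cd33. The remaining Siglec genes were highest in preNeu, with 19.0%, 67.5% and 62.7% for Siglece, 15.5%, 21.3% and 19.8% for Siglecf, and 5.26%, 24.4% and 10.9% for Siglecg. Windows of neighbouring genes share peaks, as at Cd300a and Cd300lb.

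**Figure D5:**
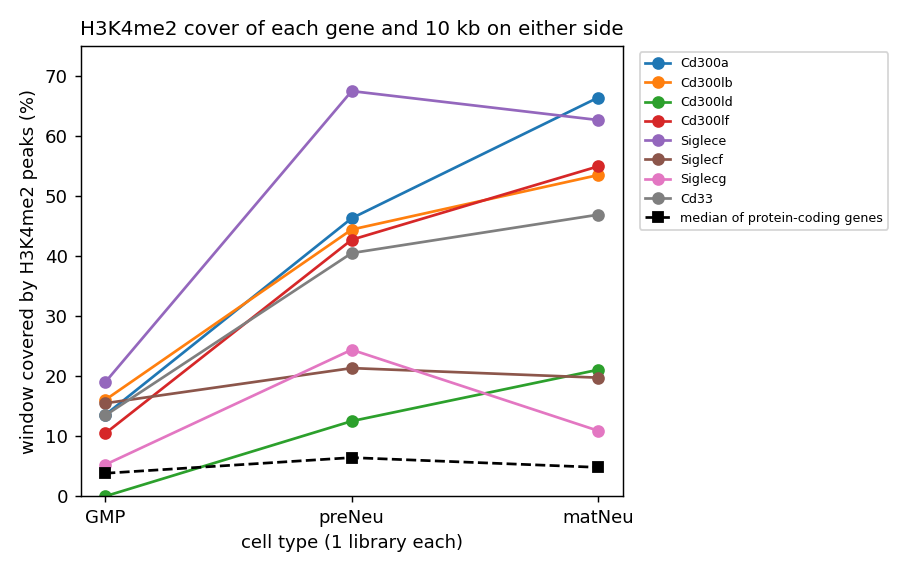
Percent of each gene's window (gene and 10 kb on either side) covered by H3K4me2 peaks in GMP, preNeu and matNeu, 1 library each; lines are genes and the dashed line is the median of 21938 protein-coding genes. All 8 lines rise from GMP to preNeu, and those of Siglece, Siglecf and Siglecg fall from preNeu to matNeu.

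At the promoters, 7 of the 8 genes carried H3K4me2 in GMP and all 8 in preNeu and in matNeu, against 59.4%, 59.3% and 56.9% of protein-coding genes. The exception was Cd300ld, with no H3K4me2 peak within 10 kb in GMP, a peak of 2325 bp over the start in preNeu (chr11:114988133-114990457) and one of 3839 bp in matNeu (chr11:114986880-114990718). The start site peak of Cd300lf widened from 2079 to 7273 and 10736 bp, that of Cd300lb from 4447 to 8624 and 11546 bp, and that of Cd300a from 2484 to 4569 and 6396 bp. At Cd33 it measured 2378, 5210 and 6696 bp, and at Siglece 1263, 8502 and 8765 bp. At Siglecg and Siglecf it was widest in preNeu, with 1585, 4198 and 2793 bp and 2608, 6016 and 5567 bp. These differences are between single libraries whose lists differ in strength. The highest fold enrichment of any H3K4me2 peak was 7.98 in the GMP list, 120 in preNeu and 65.3 in matNeu. With peaks limited to a −log10 q-value of at least 5, no promoter of the 8 had H3K4me2 in GMP (0 of 8, with 25.5% of protein-coding genes). All 8 still did in preNeu and matNeu. The part of library quality in these differences was not tested.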

How the data were processed

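TPM values, deposited by the authors for 34896 genes in 9 libraries of stranded, paired-end mRNA sequencing, were used as given. The labels describe alignment to mm10 with TopHat and counting with HTSeq, and the submitters' processing notes also name kallisto 0.44.0, so which tool made the TPM is not given in the sources used here. TPM keep no depth, and each library sums to 1000000. Values were transformed to log2(TPM + 1), 13061 genes that reached 1 TPM in 3 or more libraries were kept, and all 9 libraries were fitted with limma 3.58.1 (R 4.3.3) with cell type as the only factor, a trended prior variance and Benjamini-Hochberg adjustment over all genes tested; the threshold was 0.05. The smallest p of an exact permutation test of 3 against 3 is 0.1. The procedure was checked on simulated data, the outcome of which is not given here.

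Peak lists were deposited by the authors (MACS2 2.1.0, with BWA 0.7.17 and Trimmomatic 0.36 named in the notes; 1 library per list). The authors deposited for each peak the fold enrichment over background and the −log10 q-value that MACS2 computed; read depth is unknown. The CHD4, H3K4me2 and ATAC lists had no peak beyond a GRCm38 chromosome end. The H3K4me3 and GFI1 lists had 2179 and 3105 such peaks, and were not used. The ATAC lists titled preNeu and matNeu were identical, so 1 was used and its population is not known. Overlap was counted from 1 bp. Windows, shares and Wilson intervals were computed with pandas 2.3.3 and scipy 1.17.1.

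Samples were grouped by title. Genes named are the 8 receptors, family members with a mean of at least 1 TPM in a population, the most changed genes of each list with Ptpn6, Inpp5d, Tyrobp and Fcer1g, up to 3 genes nearest in course to a receptor, and the most abundant cell type markers; Adgre1 and Csf1r were added after their values were seen. Some genes that this rule names are not reported here. Lilrb4a and St6galnac2 each had 2 rows, and the row with an Entrez identifier was used. The genes, lists and tests were chosen with earlier results of these data known. No value column was left unused for want of a sample. Alternatives were another pseudocount, other filters, scalings, fits and windows, stricter peaks and leaving out each library.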

Additional observations from a re-analysis of the deposited data

How the results depend on the processing

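The numbers of called receptor genes in this section include Siglecf in matNeu, which the Results describe without a test because of the sort. With it they were 6, 6 and 8 of 8 in the 3 comparisons and stayed within 1.5 times under 17 other settings of each. Leaving Siglecf out of the counts, an alternative chosen after seeing the data because matNeu were sorted on Siglec-F, gave 5, 6 and 7 of 7. The split by direction changed with the scaling: 4 rose and 2 fell from GMP to preNeu, but 6 rose and 0 fell under median-of-ratios scaling and quantile normalization, and the 1 fall from preNeu to matNeu was lost under both. ITIM effector genes that rose from GMP to preNeu numbered 2 in TPM and 5 under both. Leaving out each library in turn gave 6 called genes each time for preNeu against GMP. With Siglecf counted, it gave 6 to 7 for matNeu against GMP and 8 each time for matNeu against preNeu. The calls of Cd33, Cd300ld, Cd300lf and Siglece in all 3 comparisons, and of Cd300a and Cd300lb in both comparisons with matNeu, held in 17 of 17 alternatives. The sign changed for Cd300lb in preNeu against GMP (0.42 under median-of-ratios scaling, 0.45 under quantile normalization, and −0.17 to 0.072 over the fits that each left out 1 library, above 0 without GMP replicate 1 or preNeu replicate 1), Siglecf in matNeu against GMP (0.77, 0.83, and −0.34 to 0.11 with 1 library left out, above 0 without GMP replicate 3 or matNeu replicate 2) and Siglecg in matNeu against GMP (0.41 and 0.58). With Siglecf set aside because of the sort, Cd300lb passed the test as a rise under both scalings (adjusted p = 0.0356 and 0.0407). Siglecg did so under quantile normalization alone (adjusted p = 0.0133). The cause was not tested. Under quantile normalization the shares of called genes that were higher were 48.1%, 50.2% and 50.3%. The fit with a replicate block gave 6, 6 and 8 called receptors with Siglecf counted. In all it called 7652, 10032 and 8142 genes (7706, 10041 and 8197 without the block). Deviations of same-numbered libraries correlated at −0.039 to 0.123, so the numbers were not taken as pairs. With as many WT as Gfi1KO peaks, the share of CHD4 peaks kept was 90.9%, with fewer WT peaks by construction; the other 4 alternatives gave 21.9% to 28.1%. At a −log10 q-value of at least 5, 0 of 8 promoters had H3K4me2 in GMP. The direction of H3K4me2 cover held for the same number of genes (8, 8 and 5) in all 4 alternatives. With a pseudocount of 0.1 the change of Cd300ld from GMP to preNeu was 3.66. Depth is unknown for every library, which limits what can be said of genes near 1 TPM.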
